A study of Mus musculus with 58 samples.

Results

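The 10 genes described here belong to the Wnt pathway and were listed by name for hematopoietic stem cells (HSCs) of calorie restricted mice. They are the secreted antagonist Sfrp1, the receptors Fzd4, Fzd6 and Fzd7, the coreceptors Lrp5 and Lrp6, the signal transducer Ctnnb1, the transcription factors Lef1 and Tcf7l2, and the feedback target Axin2. All 10 of 10 symbols were found among the 55376 symbols of the RNA count tables. They were chosen by name, with earlier results on their RNA levels in these groups known and with no threshold on a value, so a change in one of them is not independent evidence of its direction.

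Wnt ligands bind a Frizzled receptor together with the coreceptor Lrp5 or Lrp6. This stops the breakdown of beta-catenin, the product of Ctnnb1, which then acts in the nucleus with TCF/LEF factors such as Lef1 and Tcf7l2. Axin2, a scaffold of the complex that breaks beta-catenin down, is itself a widely used target of the pathway, and Sfrp1 carries a Frizzled-like domain with which it binds Wnt ligands outside the cell. In bone marrow the strength of Wnt signalling is known to bear on HSC self-renewal, and Sfrp1 is known there mainly as a product of stromal cells.

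The HSCs of the diet experiment were sorted as Lin-Sca-1+c-Kit+CD34-Flk2-CD150+ bone marrow cells of male C57BL/6 mice. OAL (old ad libitum, n = 4 RNA libraries) mice had free access to chow until 24 to 26 months of age. OCR (old calorie restricted, n = 4) mice received 40% less food from 3 to 4 months on, and OCRRF (old calorie restricted and refed, n = 2) mice had such lifelong restriction followed by 4 weeks of free feeding. YAL, YCR and YCRRF (n = 4 each) were the young counterparts of 3 to 4 months, with 1 week of 20% and 3 weeks of 40% restriction in YCR and 4 weeks of refeeding in YCRRF. In a second experiment, HSCs of aged mice were infected with a GFP lentivirus and an mCherry lentivirus together. The GFP virus carried an shRNA against Kdr and the mCherry virus 1 of 2 shRNAs against Bmpr1a. Control cells received GFP and mCherry viruses with scrambled shRNAs. All were cultured and transplanted with myeloid progenitors into lethally irradiated young female CD45.1 recipients. HSCs were then sorted for RNA-seq as double knockdown (n = 2 with each Bmpr1a shRNA) or Kdr single knockdown (KdrKD, n = 4). Scramble controls were sorted as GFP+mCherry+ (DoubleScr, n = 2) or GFP+ (GFPScr, n = 2). The ATAC-seq analysed here covered OCR (n = 4) and OCRRF (n = 2), and the H3K4me3 and H3K27me3 profiles covered OCR (n = 2 for each mark). PU.1 binding profiles covered ad libitum old, OCR and OCRRF HSCs (n = 2 each). ATAC-seq and histone libraries of OAL are also labelled in the series but were not analysed here. The labels number the replicates without saying that each came from separate mice, so the p-values measure only the spread between these libraries.

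The RNA libraries held 11102898 to 36579392 counted reads in the diet experiment and 35657999 to 44780217 in the transplant experiment. All 10 HSC marker genes (Kit, Procr, Hlf and others) were present in every library, with a summed level of 4153 to 5872 CPM across the diet libraries. The old libraries listed 42071 to 46646 symbols with at least 1 read and the young ones 22209 to 33496, and the summed level of 1736 olfactory and vomeronasal receptor genes, which HSCs are not known to use, was 524 to 1336 CPM in the old and 70.2 to 560 CPM in the young libraries. Age and this background cannot be told apart here. These are bulk libraries, so fewer cells of a type and less RNA per cell cannot be told apart either.

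Sfrp1 was the only member called between diet groups of 1 age. It stood at 63.4 ± 6.44 CPM (mean ± SD, n = 4) in OAL and 43.2 ± 3.05 CPM (n = 4) in OCR HSCs, at 52.5 CPM (n = 2) after refeeding, and at 35.9 ± 9.88 CPM (n = 4) in YAL HSCs. CPM is the read count scaled by library size after TMM normalization, computed over the 22 diet libraries together or over the 12 transplant libraries together, so levels are not set side by side between the experiments. Sfrp1 lies on chr8:23411502-23449632, plus strand, of GRCm38 (mm10), as do all coordinates below.

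**Figure D1:**
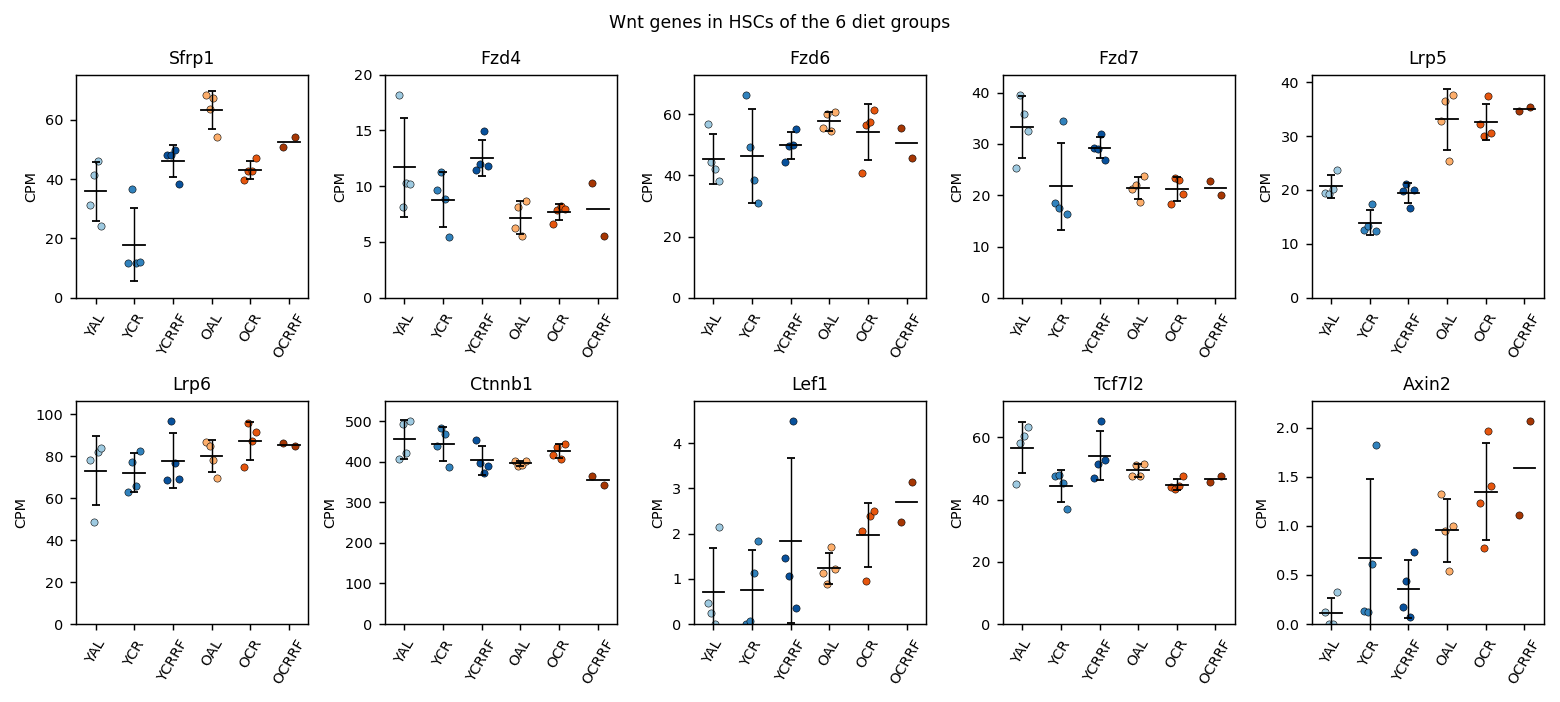
Level of each of the 10 genes (CPM, axis from 0) in every library of the 6 diet groups, with a bar at the group mean and the SD where n is above 2. The 4 OCR libraries lie below all 4 OAL libraries for Sfrp1, and Lef1 and Axin2 lie below 5 CPM in every library.

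Divided by the exon length of each gene, the levels in OAL HSCs fell into an order in which some neighbours overlapped. Ctnnb1 (chr9:120929216-120960507, plus strand) came first with 76.2 CPM per kb. Sfrp1 came next with 14.5 CPM per kb, overlapping Fzd6 (chr15:39006034-39038188, plus strand), a Frizzled receptor best known for planar polarity signalling, with 12.0 CPM per kb. Lrp6 (chr6:134446476-134566965, minus strand) with 5.85 and Tcf7l2 (chr19:55741820-55933654, plus strand) with 5.63 CPM per kb did not differ beyond the spread of the libraries. Fzd7 (chr1:59482424-59486955, plus strand), a receptor of canonical Wnt signalling in several stem cells, followed with 4.72, Lrp5 (chr19:3584828-3686564, minus strand) with 3.40 and Fzd4 (chr7:89404355-89413134, plus strand), the receptor that also binds Norrin, with 1.06 CPM per kb. Axin2 (chr11:108920349-108950783, plus strand) with 0.173 CPM per kb and Lef1 (chr3:131110471-131224356, plus strand) shared the last place, their libraries overlapping. Sfrp1 held rank 2 in OAL, OCRRF and YCRRF, rank 3 in OCR and YAL, and rank 6 in YCR, where Fzd6, Lrp6, Tcf7l2 and Fzd7 also stood above it with 4.10 CPM per kb for Sfrp1.

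At the promoters in OCR HSCs, all 10 genes carried H3K4me3, the mark of active and poised start sites, above the median of 31552 promoters of 25127 genes. H3K27me3, the Polycomb mark of repression, separated them: 5 of 10 lay above its median. The values are mean signal per base, scaled by the authors to an equal number of reads, over the 750 bp (H3K4me3) or 2000 bp (H3K27me3) downstream of the start site. The median promoter had 9.95 for H3K4me3 and 0.308 for H3K27me3, and the replicate libraries correlated with Spearman's rho of 0.971 and 0.904 across promoters, which are not independent replicates.

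Lef1, a transcription factor with less RNA than Tcf7l2, had the most H3K27me3 of the 10. It had 6.25 and 6.46 in the replicates (percentile 98.3 of all promoters), beside 16.9 and 17.2 for H3K4me3. Axin2 combined 3.13 and 3.09 for H3K27me3 (percentile 90.9) with 36.9 and 32.1 for H3K4me3, the highest mean H3K4me3 of the 10 (percentile 85.2). Sfrp1 had 1.64 and 1.78 for H3K27me3 (percentile 86.1) and 24.8 and 20.2 for H3K4me3. The 3 genes with the most H3K27me3 thus included the member with the third level per length in OCR HSCs and both members at the foot of the OCR order.

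Among the receptors, Fzd4 had 0.837 and 1.02 and Fzd7 0.609 and 0.696 for H3K27me3, above the median, while Fzd6 had 0.241 and 0.287. The coreceptor Lrp6 had 0.128 and 0.326, and Lrp5 had 0.0725 and 0.236 beside 34.1 and 33.7 for H3K4me3. Ctnnb1 had the lowest mean H3K27me3 of the 10, with 0.205 and 0.0233, though Lrp5, Lrp6 and Tcf7l2 lay below it in replicate 1. The receptors and coreceptors therefore spanned percentiles 21.7 to 78.0 of H3K27me3, and the 3 Frizzled promoters were ordered alike in both replicates.

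Start sites of 1 gene differed. The main Tcf7l2 start had 0.169 and 0.195 for H3K27me3 and 29.1 and 29.0 for H3K4me3, whereas an internal start of a shorter Tcf7l2 transcript had 0.933 and 1.28 for H3K27me3 and 9.44 and 6.99 for H3K4me3. For Lef1, a second start had 4.65 and 4.05 for H3K4me3, below the first start, and 4.94 and 3.41 for H3K27me3. With 2 libraries for each mark and 1 diet, these values are a description with no test between diets. H3K27me3 and H3K4me3 of ad libitum old HSCs were not analysed here.

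**Figure D2:**
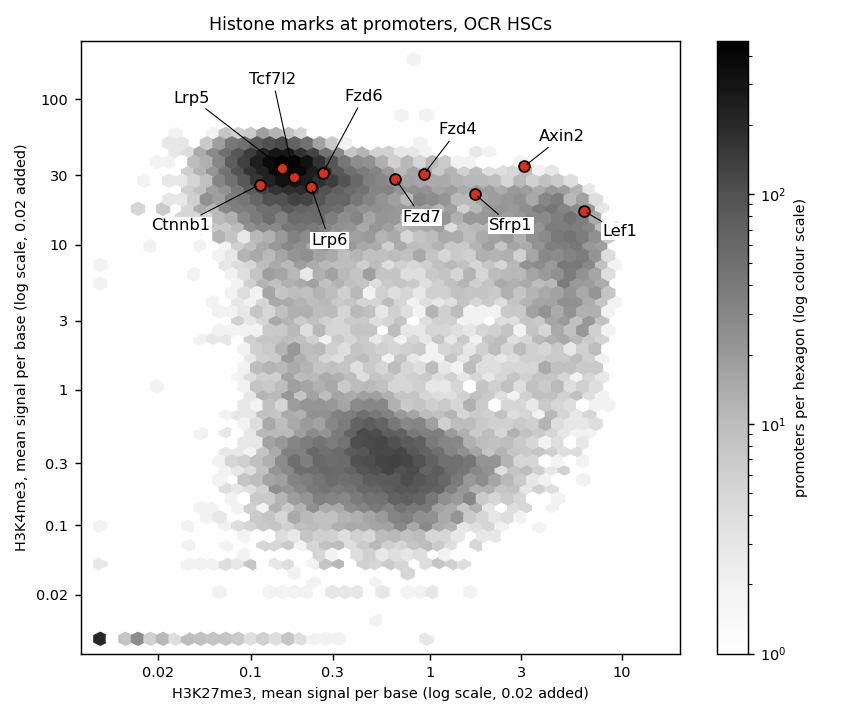
H3K27me3 against H3K4me3 at every promoter in OCR HSCs (mean signal per base of 2 libraries, log axes with 0.02 added), with shading for the number of promoters and red points for the 10 genes. Lef1 and Axin2 lie far to the right at high H3K27me3. Ctnnb1, Lrp5 and Tcf7l2 lie to the left, with H3K4me3 above that of Lef1 and below that of Axin2.

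The promoters at the ends of that range are printed for comparison, as 250 bases upstream of the start site from RefSeq (GRCm38.p6), plus strand, 5′ to 3′, with CpG dinucleotides in capitals, since CpG-rich promoters are those at which Polycomb marks are usually found. RefSeq promoter windows were matched for 6 of the 10 genes. Lef1 and Axin2 had the most H3K27me3, Ctnnb1 the least by the mean of the replicates, and the Tcf7l2 pair shows the start sites that differed within 1 gene. The Ctnnb1 window is that of a second start, upstream of the main one, which had 0.170 and 0.0233 for H3K27me3 and 20.4 and 18.2 for H3K4me3. The Lef1 window (chr3:131110047-131110296) overlaps an exon of the antisense gene Gm43352, and no exon lies in the windows of Axin2 (chr11:108920099-108920348), Ctnnb1 (chr9:120933150-120933399), the main Tcf7l2 start (chr19:55741560-55741809) or the internal one (chr19:55895071-55895320).
Lef1: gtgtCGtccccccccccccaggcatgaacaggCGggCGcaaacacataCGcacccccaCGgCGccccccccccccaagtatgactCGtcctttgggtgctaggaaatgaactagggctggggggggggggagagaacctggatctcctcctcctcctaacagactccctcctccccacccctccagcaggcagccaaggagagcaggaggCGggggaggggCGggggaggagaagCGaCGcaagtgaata
Axin2: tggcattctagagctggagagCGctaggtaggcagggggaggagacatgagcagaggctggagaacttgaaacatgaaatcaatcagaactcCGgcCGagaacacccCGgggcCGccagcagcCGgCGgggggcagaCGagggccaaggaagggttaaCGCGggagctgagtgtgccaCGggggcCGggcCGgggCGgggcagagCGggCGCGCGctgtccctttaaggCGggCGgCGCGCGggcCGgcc
Ctnnb1 second start: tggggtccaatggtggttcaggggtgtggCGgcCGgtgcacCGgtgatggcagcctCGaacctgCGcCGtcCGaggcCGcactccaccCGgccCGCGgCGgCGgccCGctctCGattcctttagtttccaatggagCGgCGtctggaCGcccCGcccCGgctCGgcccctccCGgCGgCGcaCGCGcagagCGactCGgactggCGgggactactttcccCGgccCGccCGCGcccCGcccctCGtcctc
Tcf7l2 main start: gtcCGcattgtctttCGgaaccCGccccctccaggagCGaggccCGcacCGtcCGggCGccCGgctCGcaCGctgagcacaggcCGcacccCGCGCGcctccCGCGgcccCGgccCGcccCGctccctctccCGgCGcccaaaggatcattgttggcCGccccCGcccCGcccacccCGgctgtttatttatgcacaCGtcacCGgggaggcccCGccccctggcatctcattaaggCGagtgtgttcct
Tcf7l2 internal start: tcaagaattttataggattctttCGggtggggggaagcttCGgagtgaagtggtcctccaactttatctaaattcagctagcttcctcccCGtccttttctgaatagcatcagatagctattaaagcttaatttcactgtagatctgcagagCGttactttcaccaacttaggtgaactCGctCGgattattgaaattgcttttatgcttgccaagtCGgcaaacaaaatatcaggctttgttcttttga
The windows held 11 CpGs for Lef1, 24 for Axin2, 35 for the second Ctnnb1 start, 30 for the main and 7 for the internal Tcf7l2 start, where the median of 32851 promoters was 6. Of these windows, that of the second Ctnnb1 start held more CpGs than those of Lef1 and Axin2. The TCF/LEF letters CTTTGAT or CTTTGTT, searched on both strands, were found in 8.06% of all promoter windows and, among those of the 10 genes, once for Fzd7 at 130 bases before the start and once for the internal Tcf7l2 start at 14 bases before it. The PU.1 letters GAGGAAGT, on either strand, were found in 2.44% of windows and in none of these. A match is a description of letters and not of binding.

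The first comparison asked which of the genes differ with lifelong restriction. Sfrp1 fell in OCR HSCs. It had 68.4, 63.6, 67.3 and 54.2 CPM in the 4 OAL libraries and 39.7, 42.9, 42.9 and 47.1 CPM in the 4 OCR libraries. Every OCR library lay below every OAL library. The level was 1.45-fold lower (log2 fold change -0.54, SE 0.09), with an adjusted p of 0.000245 by edgeR's quasi-likelihood test with Benjamini-Hochberg adjustment over all 27150 genes tested. A differentially expressed gene (DEG) is one with an adjusted p under 0.05 and a fold change above 1.2. The summed HSC markers were also lower, with 5010.1 to 5717 CPM in OAL and 4153 to 4951 CPM in OCR, while 7 stromal markers summed to 35.8 to 38.8 CPM in OAL and 34.1 to 48.8 CPM in OCR with none at 0. The 5 endothelial markers, Kdr among them, summed to 239.5 to 265 CPM in OAL and 176 to 217 CPM in OCR, and the 7 myeloid markers to 651 to 794 CPM and 603 to 650.0 CPM, with none at 0. The part of these in the Sfrp1 difference was not tested. The call held without any 1 of the 8 libraries (adjusted p 0.000128 to 0.0022) but not when all 6 diet groups shared 1 fit (log2 fold change -0.55, SE 0.26), where 212 genes were called in place of 1511.

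Sfrp1 was the only member called, 1 of 10 tested where 5.57% of all genes were DEGs (3.03% lower). Ctnnb1, the gene of beta-catenin, had 401, 388, 392 and 402 CPM in OAL and 417, 437, 406 and 442 CPM in OCR. All OCR libraries lay above the OAL libraries without passing the test. Such separation was found for 2 of 10 members, Sfrp1 and Ctnnb1, and for 11.4% of all genes. Ctnnb1 shares 759 exon bases with the antisense gene Ulk4 and 23 with Mir7090 on its own strand.

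Lef1 was covered by few reads, 39, 28, 53 and 40 in OAL and 65, 33, 74 and 83 in OCR, or 1.12, 0.887, 1.70 and 1.22 CPM against 2.06, 0.948, 2.39 and 2.49 CPM. These groups overlapped, and the log2 fold change of 0.69 (SE 0.31) had an adjusted p of 0.263 by edgeR. Lef1 shares 1208 exon bases with the antisense gene Gm43352, and the strand setting of the counting is not given in the sources used here. The feedback target Axin2 had 1.32, 0.950, 0.545 and 1.00 CPM in OAL and 1.23, 0.776, 1.97 and 1.41 CPM in OCR, which overlapped.

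The receptors overlapped between the diets. Fzd6 had 55.6, 59.9, 54.6 and 60.7 CPM in OAL and 40.8, 56.5, 57.6 and 61.5 CPM in OCR. Fzd7 had 21.4 ± 2.11 CPM (SD, n = 4) in OAL and 21.2 ± 2.43 CPM (n = 4) in OCR, and Fzd4 7.16 ± 1.48 and 7.68 ± 0.710 CPM. The coreceptors Lrp5 with 25.3 to 37.7 against 30.0 to 37.4 CPM and Lrp6 with 69.8 to 86.9 against 74.8 to 95.9 CPM overlapped as well, and so did Tcf7l2 with 47.6 to 51.5 against 43.3 to 47.6 CPM. The median log2 fold change of the 10 genes was 0.06, and that of all genes 0.02.

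In a wider list of 100 other Wnt pathway genes, 91 were tested and 5 were DEGs, 4 lower and 1 higher, near the 5.57% of all genes. Id2, an inhibitor of helix-loop-helix transcription factors, fell from 55.9 ± 5.11 to 26.8 ± 4.96 CPM (log2 fold change -1.05, adjusted p 1.00e-07 by edgeR). Porcn, the acyltransferase needed for Wnt secretion, fell from 12.7 ± 0.791 to 8.47 ± 1.80 CPM (adjusted p 0.0163), the Wnt receptor Ryk from 60.7 ± 3.31 to 49.5 ± 1.53 CPM (adjusted p 0.0470) and the corepressor Tle2 from 76.0 ± 8.62 to 59.6 ± 8.56 CPM (adjusted p 0.0485). The cell cycle gene Ccnd1 rose from 49.8 ± 5.55 to 62.4 ± 7.99 CPM (adjusted p 0.0338). Of these, Id2 kept its call without any 1 of the 8 libraries. Leaving out 1 library ended the call of Porcn in 4 of 8 cases (adjusted p up to 0.0804), of Ryk in 7 (up to 0.123), and of Tle2 and Ccnd1 in 6 each (up to 0.249 and 0.135). None of 17 ligands, 10 other secreted antagonists or 21 cytoplasmic transducers tested was called.

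**Figure D3:**
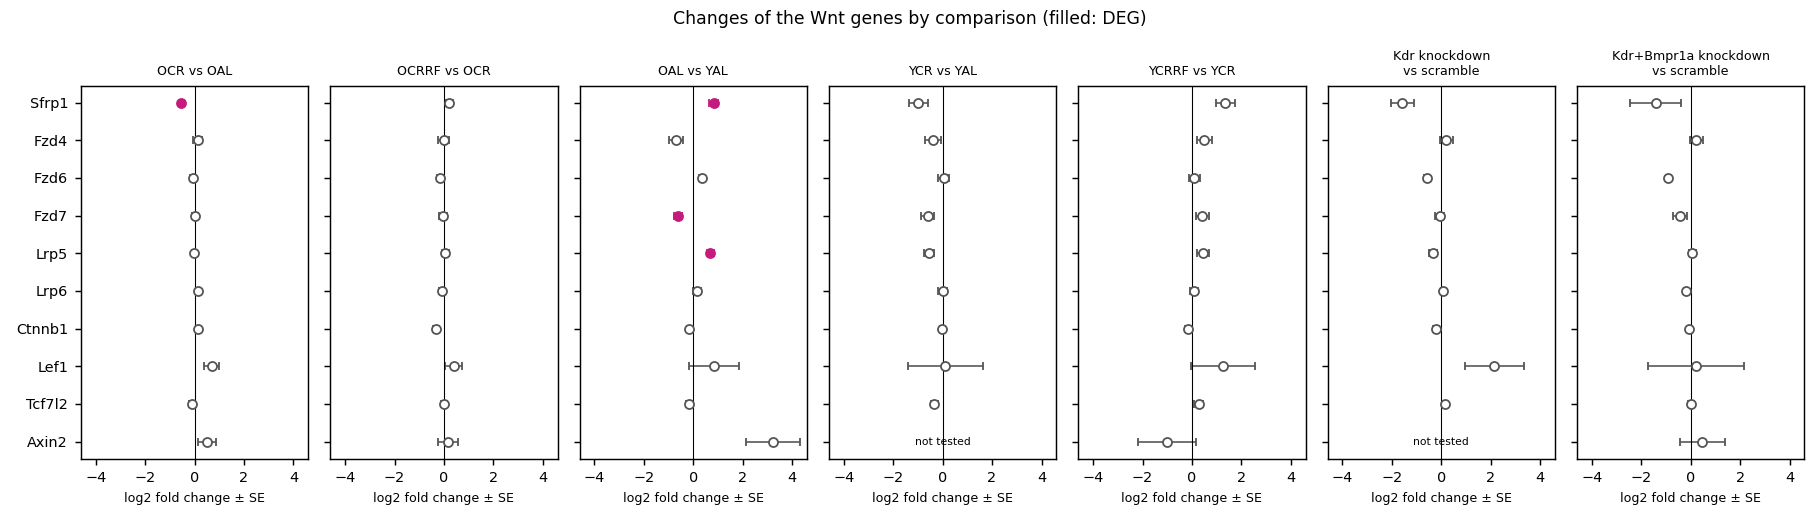
Log2 fold change (first group against second) with its SE for each of the 10 genes in 7 comparisons, filled magenta where the gene was a DEG. Sfrp1 is filled in OCR vs OAL and OAL vs YAL, Fzd7 and Lrp5 only in OAL vs YAL, and no gene in the refeeding, young restriction or knockdown comparisons.

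The next comparison asked whether refeeding after lifelong restriction altered these genes. No member was called in OCRRF vs OCR, 0 of 10 tested by edgeR where 3.41% of all genes were DEGs, with 1 member past an unadjusted p of 0.05 and a fold of 1.2 (16.4% of all genes) and 1 called by DESeq2. Sfrp1 had 50.7 and 54.3 CPM in the 2 OCRRF libraries, both above the 4 OCR libraries. Its log2 fold change was 0.22 (SE 0.13, adjusted p 0.368). Ctnnb1 had 365 and 343 CPM, both below the 4 OCR libraries, with a log2 fold change of -0.32 (SE 0.12, adjusted p 0.131). It is the gene that DESeq2 called (adjusted p 0.0141), and edgeR called it without OCR replicate 1 (adjusted p 0.0417) or OCR replicate 3 (adjusted p 0.0307). Such separation was found for 2 of 10 members and for 28.3% of all genes in this comparison of 4 and 2 libraries.

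The other 8 genes overlapped between OCR and OCRRF. Lef1 had 73 and 82 reads in OCRRF (2.26 and 3.14 CPM), and Axin2 1.11 and 2.07 CPM. The receptors stood at 10.3 and 5.51 CPM for Fzd4, 55.4 and 45.6 CPM for Fzd6 and 22.8 and 20.0 CPM for Fzd7. Lrp5 had 34.7 and 35.4, Lrp6 86.4 and 84.8 and Tcf7l2 45.6 and 47.6 CPM, overlapping their OCR libraries. The median log2 fold change was 0.00 for the members, rounded from just below 0, and 0.11 for all genes, and olfactory and vomeronasal receptors summed to 554 to 1136 CPM in OCR and 1047 to 1336 CPM in OCRRF. Of all DEGs 20.4% were higher, against 6.32% with DESeq2 and 37.3% when TMM used only genes of at least 5 CPM, which moved the median of all genes to 0.24.

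Set against OAL, the OCRRF libraries gave no called member either, 0 of 10 by edgeR where 4.14% of all genes were DEGs, with 2 past the unadjusted threshold (20.1% of all genes) and 2 called by DESeq2. Sfrp1 overlapped by 1 library, with 50.7 and 54.3 CPM against a lowest OAL value of 54.2 CPM (log2 fold change -0.29, SE 0.10, adjusted p 0.0823). DESeq2 called it (adjusted p 0.00664), and TMM over genes of at least 5 CPM moved it to -0.14 (adjusted p 0.377). Lef1 was higher in both OCRRF libraries than in every OAL library, by 1.11 (SE 0.32, adjusted p 0.0518) on the log2 scale, and was called by DESeq2 (adjusted p 0.0367). Ctnnb1 was lower in both, by -0.17 (SE 0.06, adjusted p 0.101), and separation was found for 38.6% of all genes. This comparison shares its OAL libraries with OCR vs OAL and its OCRRF libraries with OCRRF vs OCR. The share of DEGs that were higher was 40.1%, against 16.6% with DESeq2, 26.4% with DESeq2 size factors and 93.3% with TMM over genes of at least 5 CPM, with all-gene medians of 0.12, 0.21, 0.06 and 0.26.

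Of the wider Wnt list, 99 genes were tested in each refeeding comparison. Against OCR 2 were DEGs, where 3.41% of all genes were. Ccnd1 fell from 62.4 ± 7.99 to 36.2 CPM (n = 2, log2 fold change -0.85, adjusted p 0.000112) and Id2 rose from 26.8 ± 4.96 to 40.0 CPM (log2 fold change 0.52, adjusted p 0.0314). Each moved opposite to its OCR vs OAL difference, but the comparisons share the OCR libraries. Ccnd1 lost the call without OCRRF replicate 1 (adjusted p 0.0785), and Id2 in 5 of 6 fits without 1 library (adjusted p up to 0.397). Against OAL, 6 genes were DEGs, 2 higher and 4 lower, where 4.14% of all genes were and the share of higher calls varied with the scaling as given above. Pygo1, a beta-catenin cofactor, rose from 1.29 ± 0.293 to 3.01 CPM (adjusted p 0.0347), and Ccnd1 (adjusted p 0.0411), Id2 (0.0210), the scaffold gene Dvl1 (0.0380) and Fbxw11 (0.0348), a ubiquitin ligase subunit that recognises beta-catenin, fell by 0.48, 0.49, 0.31 and 0.35 on the log2 scale. Leaving out 1 library ended the call in 5 of 6 cases for Pygo1 and Ccnd1, 4 of 6 for Id2 and 6 of 6 for Dvl1 and Fbxw11, with adjusted p up to 0.286.

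The young groups asked the same questions of short restriction. In YCR HSCs 3 of 4 libraries had low Sfrp1. The values were 31.4, 41.5, 46.3 and 24.4 CPM in YAL and 11.6, 36.6, 11.6 and 11.9 CPM in YCR, so that YCR replicate 2 lay inside the YAL range and the other 3 below it. That library also had the highest sum of B cell markers in YCR, 441 CPM against 71.6, 175.0 and 175 CPM in replicates 1, 3 and 4, whose part was not tested. The log2 fold change was -0.99 (SE 0.39) with an adjusted p of 0.438 by edgeR. Without YCR replicate 2 it was -1.61 (adjusted p 0.0653), and with no filter on low counts the gene was called (adjusted p 0.00127).

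No member was called in YCR vs YAL, 0 of 9 tested where 0.364% of all genes were DEGs. Past the unadjusted threshold were 4 members (8.39% of all genes), and DESeq2 called 0. They were Sfrp1, Lrp5, Fzd7 and Tcf7l2, with log2 fold changes of -0.56 (SE 0.20, adjusted p 0.392) for Lrp5, -0.60 (SE 0.26, adjusted p 0.499) for Fzd7 and -0.34 (SE 0.15, adjusted p 0.523) for Tcf7l2. Lrp5 had 19.4, 19.2, 20.3 and 23.8 CPM in YAL and 12.5, 13.4, 17.3 and 12.4 CPM in YCR. It was the only member whose young groups did not overlap, as 6.32% of all genes did not. Fzd7 had 25.3, 39.6, 35.8 and 32.6 CPM in YAL and 18.6, 17.6, 34.5 and 16.4 CPM in YCR, where replicate 3 lay inside the YAL range. The median log2 fold change of the 9 members was -0.34, beside 0.00 for all genes.

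The remaining members overlapped. Fzd4 had 18.2, 8.13, 10.3 and 10.2 CPM in YAL and 9.66, 11.2, 8.89 and 5.42 CPM in YCR. Fzd6 ranged over 38.1 to 56.9 and 31.1 to 66.4 CPM, and Lrp6 over 48.6 to 83.9 and 63.1 to 82.3 CPM. Ctnnb1 had 407, 493, 421 and 499.8 CPM in YAL and 439, 482, 468 and 388 CPM in YCR. Neither group lay apart for any of them. Tcf7l2, which passed the unadjusted threshold, had 44.9, 58.2, 60.3 and 63.3 CPM in YAL and 47.5, 47.8, 45.2 and 37.0 CPM in YCR. Lef1 had 8, 8, 0 and 39 reads in YAL and 0, 1, 22 and 58 in YCR, and Axin2 2, 0, 0 and 6 and 4, 2, 12 and 58. A count of 0 allows up to 3 reads, which were 0.0891 to 0.103 CPM in these libraries, for counting error only. Axin2 stayed under the count filter and was not tested.

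After refeeding of young mice, Sfrp1 was at 48.3, 48.1, 50.0 and 38.2 CPM in YCRRF. All 4 lay above all 4 YCR libraries, and YCR replicate 2, at 36.6 CPM, lay just below the lowest of them. The log2 fold change in YCRRF vs YCR was 1.35 (SE 0.38) with an adjusted p of 0.339 by edgeR, and 0 of 10 members were called where 0.0102% of all genes were DEGs, with 1 past the unadjusted threshold (7.15% of all genes) and 1, Sfrp1, called by DESeq2 (adjusted p 0.0319). Sfrp1 was also called with no filter (adjusted p 0.000109), with all 6 groups in 1 fit (adjusted p 0.0099) and without YCR replicate 2 (log2 fold change 1.97, adjusted p 0.0402). Separation was found for Sfrp1 and Fzd4 among the members, with 11.4, 12.0, 15.0 and 11.8 CPM for Fzd4 in YCRRF, and for 5.52% of all genes.

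YCRRF was also set against YAL. By edgeR and by DESeq2, 0 of 9 members were called, 0 passed the unadjusted threshold (3.65% of all genes) and none separated (3.22% of all genes), where 0% of all genes were DEGs. Sfrp1 had a log2 fold change of 0.37 (SE 0.21, adjusted p 0.995). Lrp5 with 16.7 to 21.0 CPM and Fzd7 with 26.8 to 32.0 CPM in YCRRF overlapped both other young groups. Ctnnb1 had 454, 397, 373 and 389 CPM, Tcf7l2 47.0, 51.3, 65.2 and 52.7 CPM and Lrp6 68.6, 96.8, 76.8 and 69.4 CPM in YCRRF. Lef1 had 1.47, 1.06, 4.48 and 0.365 and Axin2 0.172, 0.437, 0.0706 and 0.730 CPM. These young refed values lay within or around the YAL ranges. None of the 61 to 66 genes of the wider list tested in the 3 young comparisons was called by edgeR, while 7, 6 and 4 passed the unadjusted threshold and DESeq2 called 4, 2 and 1 in YCR vs YAL, YCRRF vs YCR and YCRRF vs YAL.

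Whether restriction moved a gene differently in old and young mice was tested as a difference of log2 fold changes. It was OCR against OAL minus YCR against YAL. Restriction was lifelong in the old and short in the young mice, so age and length of restriction cannot be told apart. No member was called, 0 of 10 where 0.0318% of all genes were, with 2 past the unadjusted threshold (8.65% of all genes) and 0 by DESeq2. These were Fzd7 at 0.61 (SE 0.29, adjusted p 0.559) and Lrp5 at 0.55 (SE 0.22, adjusted p 0.478). For Sfrp1 the difference was 0.47 (SE 0.40, adjusted p 0.857), so a different Sfrp1 response in old and young mice was not shown. Without YCR replicate 2 it was 1.07 (adjusted p 0.113). The wider list gave 0 calls among 94 tested by edgeR and by DESeq2, with 12 past the unadjusted threshold.

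Between the ages, 3 members were called in OAL vs YAL, 2 higher and 1 lower of 10 tested, where 14.8% of all genes were DEGs (6.89% higher and 7.93% lower). Sfrp1 rose with age, from 31.4, 41.5, 46.3 and 24.4 CPM in YAL to 68.4, 63.6, 67.3 and 54.2 CPM in OAL. The groups did not overlap, and the log2 fold change was 0.83 (SE 0.18, adjusted p 0.0124). Lrp5 rose from 19.4, 19.2, 20.3 and 23.8 to 32.8, 36.6, 25.3 and 37.7 CPM, by 0.69 (SE 0.15, adjusted p 0.0130) on the log2 scale. Fzd7 fell from 25.3, 39.6, 35.8 and 32.6 to 21.3, 22.0, 18.6 and 23.7 CPM, with a log2 fold change of -0.63 (SE 0.15, adjusted p 0.0200). Thus the coreceptor Lrp5 and the antagonist Sfrp1 were higher and the receptor Fzd7 lower in old HSCs. The other coreceptor, Lrp6, overlapped between the ages (log2 fold change 0.14, SE 0.16, adjusted p 0.601 by edgeR).

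The Sfrp1 call held without any 1 library (adjusted p 0.00636 to 0.048). Lrp5 lost its call without OAL replicate 2 (adjusted p 0.0517) or OAL replicate 4 (0.0549), and Fzd7 without OAL replicate 1 (0.0668), 2 (0.0575) or 3 (0.0687). Over all alternatives the log2 fold changes spanned 0.67 to 0.96 for Sfrp1, 0.62 to 0.80 for Lrp5 and -0.75 to -0.52 for Fzd7. The median of all genes was 0.05 and 46.5% of DEGs were higher, which became 0.09 and 56.0% with DESeq2 size factors, 0.16 and 70.5% with TMM over genes of at least 5 CPM, and 1.02 and 75.1% with DESeq2, which was run without the count filter.

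The other members were not called by edgeR. Ctnnb1 lay lower in all OAL libraries, 401, 388, 392 and 402 CPM against 407, 493, 421 and 499.8 CPM in YAL, with a log2 fold change of -0.19 (SE 0.07, adjusted p 0.112). Axin2 had 46, 30, 17 and 33 reads in OAL and 2, 0, 0 and 6 in YAL. Its adjusted p was 0.0737, and 0.0171 without YAL replicate 4. Fzd6 had an adjusted p of 0.0752 at 0.36 (SE 0.13), and 0.0115 without YAL replicate 1. Fzd4 stood at -0.69 (SE 0.28, adjusted p 0.113), and at an adjusted p of 0.0467 without YAL replicate 2. DESeq2 called 5 members, adding Fzd6 (adjusted p 0.0196) and Axin2 (0.00845). Ctnnb1 had an adjusted p of 0.0379 and Tcf7l2 of 0.0442 without YAL replicate 1. Separation was found for 5 of 10 members (Sfrp1, Lrp5, Axin2, Fzd7 and Ctnnb1) and 27.5% of all genes.

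Markers and library properties moved with age as well. The 6 B cell markers summed to 38.7 to 43.5 CPM in OAL and 78.6 to 157 CPM in YAL with none at 0, and the 7 stromal markers to 35.8 to 38.8 CPM in OAL and 17.4 to 29.4 CPM in YAL with up to 1 at 0. The 4 multipotent progenitor markers summed to 129.9 to 161 CPM in OAL and 180.0 to 229.9 CPM in YAL with none at 0. Olfactory and vomeronasal receptors summed to 524 to 729 CPM in OAL and 115 to 230.4 CPM in YAL. The part of these in the Sfrp1, Lrp5, Fzd7 and Axin2 differences was not tested. Axin2 shares 209 exon bases with the antisense gene Gm11670.

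In the wider list, 79 genes were tested in OAL vs YAL, 11 rose and 7 fell, where 6.89% of all genes rose and 7.93% fell. Lgr5, the receptor for R-spondins, rose from 2.01 ± 1.37 to 7.92 ± 0.219 CPM (adjusted p 0.0170), the ligand Wnt5a from 1.23 ± 0.545 to 3.65 ± 1.25 CPM (0.0295), the receptor Fzd3 from 21.6 ± 5.03 to 35.2 ± 2.46 CPM (0.0166), the corepressor Tle3 from 37.7 ± 8.25 to 55.4 ± 3.59 CPM (0.0260) and the casein kinase Csnk1g1 from 28.6 ± 3.91 to 41.8 ± 4.07 CPM (0.0181). Tcf7l1, the TCF factor that mostly represses, fell from 11.5 ± 2.20 to 6.00 ± 1.11 CPM (0.0210), Tle2 from 118 ± 9.19 to 76.0 ± 8.62 CPM (0.00287), Ctnnbip1, which keeps beta-catenin from TCF factors, from 18.8 ± 3.04 to 12.4 ± 1.63 CPM (0.0402), Tle4 from 84.9 ± 14.6 to 61.9 ± 5.28 CPM (0.0348) and the scaffold gene Dvl2 from 139 ± 20.0 to 103 ± 6.27 CPM (0.0210). Tle2 kept its call without any 1 library. The other named genes lost it in 2 of 8 such fits for Fzd3, 3 for Csnk1g1, Dvl2 and Tcf7l1, 4 for Lgr5, Wnt5a and Tle3, and 6 for Ctnnbip1 and Tle4, with adjusted p up to 0.129. The 11 higher genes included 3 of the 6 secreted antagonists tested, each at a mean near or under 1 CPM in OAL, where the libraries also listed more symbols (42071 to 43972) than in YAL (25936 to 28713).

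Across the 22 diet libraries, the genes whose pattern was most like that of Sfrp1 were Jam2 (Spearman's rho 0.903), Wwtr1 (0.887), Junos (0.886), Lama5 (0.880) and Calml4 (0.878), of 12327 genes averaging 5 CPM or more. After each group was centred on its mean, rho was 0.107 for Jam2, 0.601 for Wwtr1, 0.0717 for Junos, 0.619 for Lama5 and 0.538 for Calml4, so the likeness of Jam2 and Junos lay between groups. Among the other members averaging 5 CPM or more, Lrp5 was the most alike, with rho of 0.650, and Ctnnb1 the least, with -0.532. Lrp6 had 0.373, Fzd6 0.324, Tcf7l2 0.237, Fzd7 -0.0706 and Fzd4 -0.219. Lef1 and Axin2 lay under 5 CPM and were not ranked. The values of the members were not centred on group means, so likeness within and between groups is not separated for them. The libraries share diet, age and background, and these values are a description.

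In the transplant experiment the targeted genes were checked first. Kdr, the gene of the VEGF receptor 2, had 6.04 and 6.07 CPM in GFPScr and 1.93, 2.21, 3.28 and 2.03 CPM in KdrKD, all below the scramble (log2 fold change -1.35, SE 0.25, adjusted p 0.247). In the double knockdown Kdr had 3.97 and 4.62 CPM in DoubleScr, 1.24 and 0.555 CPM with the first and 1.60 and 1.35 CPM with the second Bmpr1a shRNA (log2 fold change -1.86, SE 0.37, adjusted p 0.272). Both differences went with the labels. Bmpr1a, a BMP receptor gene, had 5.21 and 4.43 CPM in DoubleScr, 4.44 and 0.656 CPM and 2.22 and 0.595 CPM with the 2 shRNAs, so 1 library overlapped the scramble (log2 fold change -1.29, SE 0.72, adjusted p 0.602).

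In Kdr knockdown HSCs, 4 of 9 tested members lay below the scramble in every library, and none passed the test. Sfrp1 had 13.4 and 13.0 CPM in GFPScr and 6.29, 7.08, 1.87 and 2.54 CPM in KdrKD. All 4 knockdown libraries lay below both scrambles, with a log2 fold change of -1.57 (SE 0.46, adjusted p 0.389). Fzd6 had 45.5 and 47.8 CPM in GFPScr and 31.1, 27.1, 31.3 and 34.6 CPM in KdrKD, with a log2 fold change of -0.59 (SE 0.11, adjusted p 0.247). Ctnnb1 with 397 and 382 CPM against 363, 284, 322 and 369.8 CPM and Lrp5 with 15.4 and 14.7 CPM against 13.4, 8.98, 12.3 and 12.7 CPM separated as well, as 21.9% of all genes did in this comparison of 4 and 2 libraries. By edgeR 0 of 9 were called where 0.0149% of all genes were DEGs, 2 passed the unadjusted threshold (6.76% of all genes), and DESeq2 called 1, Fzd6 (adjusted p 0.00129), as did edgeR with no filter (0.0356).

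In the double knockdown, Fzd6 had 43.0 and 46.3 CPM in DoubleScr, 26.5 and 22.5 CPM with the first and 23.9 and 22.0 CPM with the second Bmpr1a shRNA. Every knockdown library lay below both scrambles (log2 fold change -0.91, SE 0.11, adjusted p 0.145). DESeq2 called it (adjusted p 7.04e-10), and so did edgeR with no filter (0.013) and with all transplant groups in 1 fit (0.0143). By edgeR 0 of 10 members were called where 0.00498% of all genes were DEGs, with 1 past the unadjusted threshold (6.71% of all genes) and 1 called by DESeq2. Fzd6 shares 152 exon bases with the antisense gene Gm26704. The single and double knockdown each had their own scramble and share no library. Both carry the same Kdr shRNA and were sorted from cells given both viruses, and whether they share recipients is not stated. They are therefore not independent observations.

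The other members of the double knockdown comparison spread more widely. Sfrp1 had 6.47 and 3.98 CPM in DoubleScr, 4.16 and 1.92 CPM and 1.80 and 0 CPM with the 2 shRNAs, where 0 reads allow up to 0.0811 CPM. The groups overlapped by 1 library (log2 fold change -1.41, SE 1.03, adjusted p 0.714). Fzd7 had 15.0 and 14.3 CPM in DoubleScr, then 9.35 and 6.49 and 13.6 and 13.4 CPM, and Lrp6 66.6 and 70.1 CPM, then 63.1 and 52.6 and 59.6 and 63.1 CPM. Fzd6, Fzd7 and Lrp6 were lower in every knockdown library, 3 of 10, where 21.3% of all genes separated. Ctnnb1 had 386 and 382 CPM in DoubleScr, then 376 and 341 and 371 and 395 CPM, and Lrp5 lay between 11.4 to 12.8 and between 12.0 to 13.6 CPM. Fzd4 stood at 6.74 to 13.9 CPM and Tcf7l2 at 31.1 to 46.5 CPM across the 12 transplant libraries. Lef1 and Axin2 had at most 2.23 and 0.730 CPM there.

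The summed HSC markers were 3648 to 3912 CPM in GFPScr and 2967 to 3383 CPM in KdrKD, and 3135 to 3137 CPM in DoubleScr and 2767 to 3239 CPM in the double knockdown. The 4 multipotent progenitor markers summed to 409 to 481 CPM in GFPScr and 499 to 606 CPM in KdrKD, and to 507 to 562 CPM in DoubleScr and 603 to 934 CPM in the double knockdown, with none at 0. The 7 stromal markers summed to 12.9 to 17.8 CPM in GFPScr and 14.6 to 17.3 CPM in KdrKD, and to 28.2 to 31.6 CPM in DoubleScr and 11.2 to 24.9 CPM in the double knockdown, with up to 3 at 0. The 6 B cell markers summed to 30.0 to 37.4 CPM in GFPScr and 39.8 to 67.2 CPM in KdrKD, and to 39.0 to 41.9 CPM in DoubleScr and 45.0 to 58.6 CPM in the double knockdown, with up to 2 at 0. The part of all these in the lower Sfrp1 and Fzd6 values was not tested. None of the 64 and 63 genes of the wider list tested was called by edgeR in the single and double knockdown, while 7 and 5 passed the unadjusted threshold and DESeq2 called 1 and 2.

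**Figure D4:**
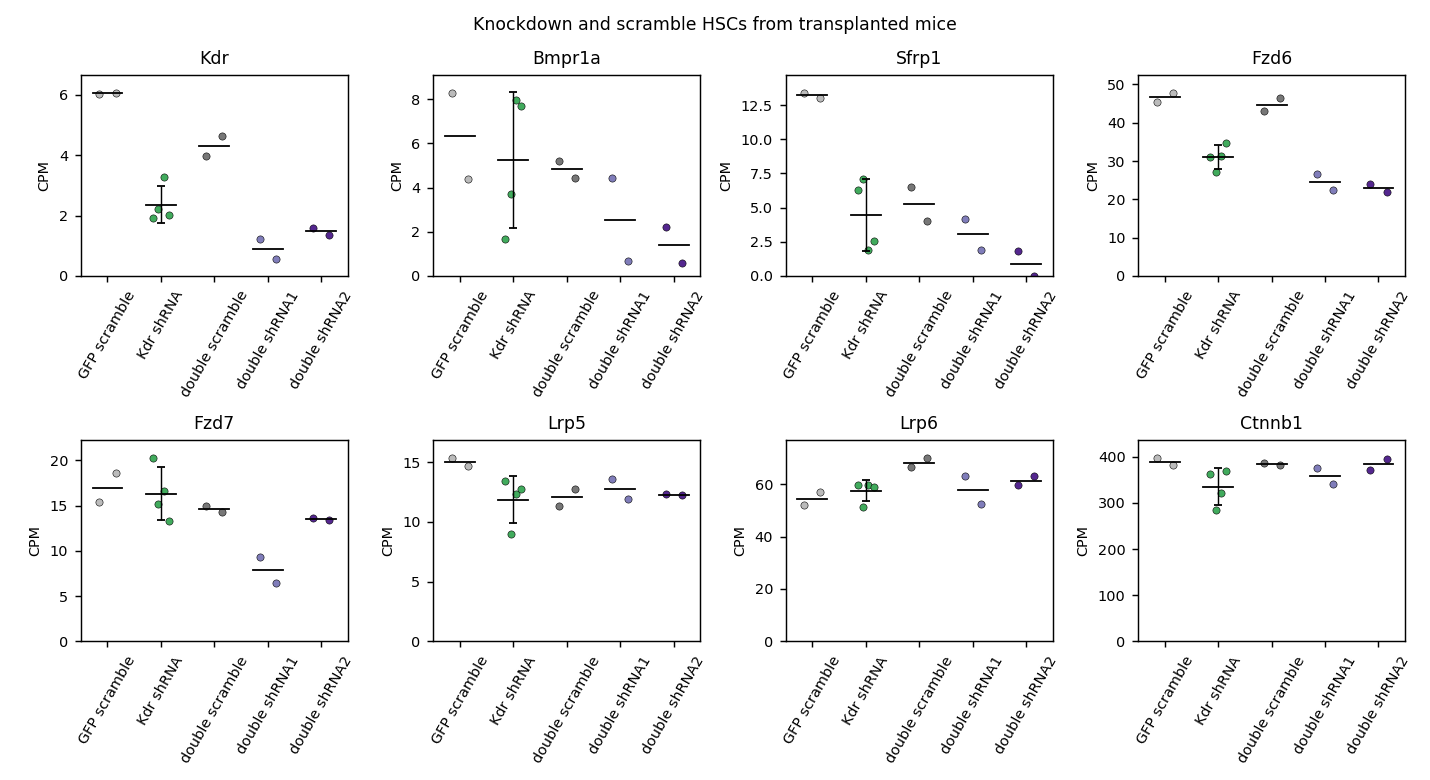
Level (CPM, axis from 0) of Kdr, Bmpr1a and 6 Wnt genes in each library of the 5 transplant groups, with a bar at the mean and the SD where n is above 2. Fzd6 lies lower in all KdrKD libraries than in GFPScr, and lower in all 4 double knockdown libraries than in DoubleScr.

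Chromatin accessibility was compared between OCRRF and OCR HSCs at the promoters of the 10 genes, each of which had an ATAC peak within 1 kb of a start site, 14 peaks in all. The libraries held 15721335 to 19558148 counted reads. None of the 14 peaks was a differentially accessible region, 0 called by edgeR and by DESeq2 where 0.221% of 123372 peaks were (adjusted p under 0.05, fold change above 1.5 and mean log2 CPM above 1.5), with 4 at an unadjusted p under 0.05 (11.7% of all peaks). The median log2 fold change was 0.03, beside -0.01 for all peaks, and within 5 kb the 19 peaks gave 0 calls.

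The Axin2 promoter had 19.6, 23.0, 20.7 and 19.6 CPM in OCR and 15.1 and 17.4 CPM in OCRRF (log2 fold change -0.36, SE 0.11, adjusted p 0.151 by edgeR). The Lrp5 promoter had 6.72, 6.85, 7.59 and 7.30 CPM in OCR and 9.09 and 11.2 CPM in OCRRF (0.50, SE 0.16, adjusted p 0.156). Both separated without passing the test. The Sfrp1 promoter had 60.6, 69.0, 69.3 and 71.3 CPM in OCR and 74.4 and 76.0 CPM in OCRRF (0.15, SE 0.07, adjusted p 0.352). The Fzd4 promoter had the highest CPM of the 14 peaks (percentile 99.5 of all peaks) and a log2 fold change of 0.20 (SE 0.06, adjusted p 0.144). These levels and percentiles are per peak and not divided by peak length, which ran from 362 to 1847 bp. Of the 14 peaks 3 lay higher (Fzd4, Lrp5 and Sfrp1) and 2 lower (Axin2 and Ctnnb1) in both OCRRF libraries, and 20.4% of all peaks separated. Open promoters thus included Fzd4, whose RNA was low per length. Lef1 peaks were at percentile 64.7 at the first start site, 72.3 at 589 bp past it and 91.0 at 36 bp before the second start. ATAC-seq of ad libitum old HSCs was not analysed here.

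**Figure D5:**
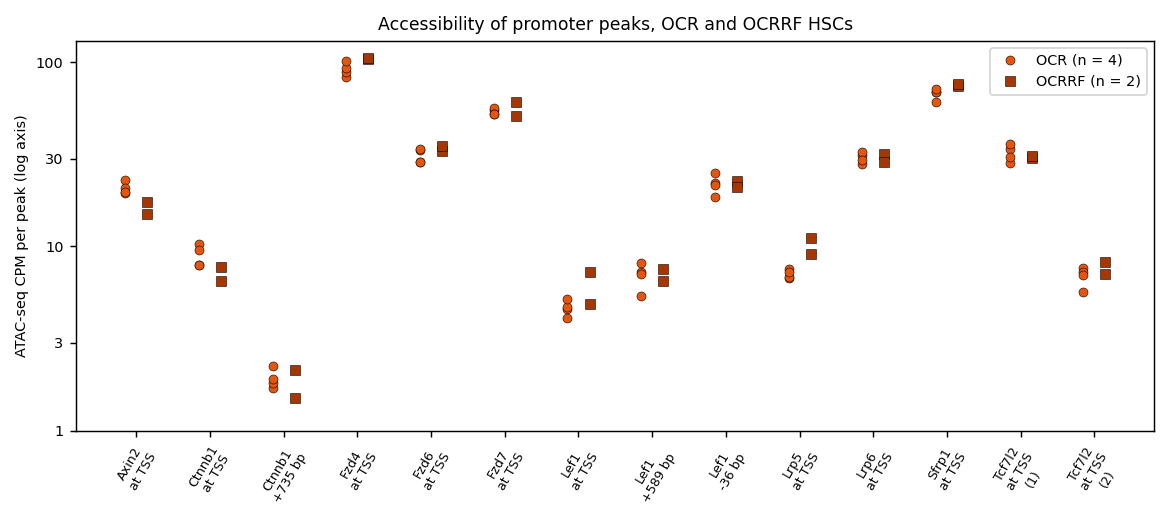
Accessibility (CPM per peak, not divided by peak length, log axis) of the 14 promoter peaks of the 10 genes in OCR (circles, n = 4) and OCRRF (squares, n = 2) libraries. Fzd4, Sfrp1 and Fzd7 hold the peaks with the highest CPM. Both OCRRF libraries lie above all OCR libraries at the Fzd4, Lrp5 and Sfrp1 start sites. They lie below them at the Axin2 and Ctnnb1 start sites, and the groups overlap at the other peaks.

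PU.1, a myeloid transcription factor, was mapped with peaks that the authors called in each library on its own. The deposited files name an antibody of 1 supplier for every first and of another for every second replicate, so replicate and antibody cannot be told apart. Within 5 kb of the gene bodies, peaks in both replicates were found at Lrp5 in ad libitum old HSCs, at Lrp5 and Lrp6 in OCR and at Lrp5 in OCRRF. The libraries held 3046 and 2900 peaks in the ad libitum group, 5464 and 3852 in OCR and 2817 and 2262 in OCRRF, so OCR had more chance of a peak. The first replicate of the ad libitum group, for example, had a Lrp5 peak at chr19:3581366-3581762, past the 3′ end, where no gene is annotated. Peaks at this place were called in all 6 libraries, with fold enrichments of 16.4 and 13.8 in the ad libitum group, 17.5 and 15.8 in OCR and 12.8 and 9.13 in OCRRF.

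The Lrp6 peak at chr6:134539443-134539797, in an intron, was called in both OCR replicates (fold enrichment 10.7 and 7.58) and in none of the other 4 libraries. A Lrp5 intron peak at chr19:3669121-3669347 was called in both OCRRF replicates (5.33 and 7.38, the peaks overlapping) and in OCR replicate 2 (5.78). A peak 1287 bp upstream of Lrp5 was called in OCR replicate 2 (8.22) and, 1284 bp upstream, in OCRRF replicate 1 (5.31). Tcf7l2 intron peaks in OCR replicate 1 (6.00) and ad libitum replicate 2 (6.61) lay at different sites, and a peak 1584 bp past Ctnnb1, within Ulk4, was called only in OCR replicate 1 (6.84). No peak lay within 5 kb of Sfrp1, Fzd4, Fzd6, Fzd7, Lef1 or Axin2. Within 50 kb, a peak 31857 to 31943 bp past the 3′ end of Lrp6 was called in all 6 libraries, and one 13607 to 13707 bp upstream of Sfrp1 in ad libitum replicate 2 (6.49) and OCR replicate 1 (5.08). With 2 libraries a group these are presence calls with no test.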

How the data were processed

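RNA-seq of sorted HSCs was deposited as raw counts per gene. Per the labels and methods, the authors trimmed reads with cutadapt, aligned them with STAR to mm10 and counted them with featureCounts against GENCODE annotation. Whether strand or mate pairs were counted separately is not given in the sources used here. Counts from 1 to 20 were even in 66.4% to 81.4% of cases per library, so low counts move mostly in steps of 2. ATAC-seq was deposited as counts per peak, aligned with BWA. Histone signal was deposited as coverage that the authors scaled by read number, and PU.1 peaks as MACS2 fold enrichment with −log10 p and q values and the peak score (not used) deposited beside it.

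From the deposited counts, edgeR 4.0.16 in R 4.3.3 gave quasi-likelihood tests within the groups compared. They used TMM factors, filterByExpr and Benjamini-Hochberg adjustment over all genes or peaks tested. A prior count of 2 entered only the log2 CPM behind the likeness values and the correlation of same-numbered deviations. The interaction used the 4 OAL, OCR, YAL and YCR groups. DESeq2 1.42.0 was an alternative. Only the edgeR fits were tested on simulated data. The scripts for tables ran in Python 3.11.15. Exon lengths came from GENCODE M21. Histone, PU.1 and likeness values had no test. Columns of authors' comparisons were not used. Named were all 10 members and, in the wider list, up to 5 called genes of each direction with a mean of at least 1 CPM, taken by the largest log2 fold change, plus the 5 genes most like Sfrp1. Members and lists were chosen with earlier results of these data known. Intervals and limits on a count of 0 cover counting error only. No 2 RNA libraries of 1 group agreed within sampling noise, and other pairs were not compared.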

Additional observations from a re-analysis of the deposited data

Results flagged for a closer look

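Dixon's test for 1 sample far from the others, at its 95% critical value for 4 samples, was run on the members' RNA levels in each group of 4 libraries and on their 14 promoter peaks in OCR, 74 tests in all. Chance gives about 1 in 20, and 6 libraries passed. Sfrp1 stood apart in YCR replicate 2 at 36.6 CPM, above the other 3, the library that also had the most B cell marker RNA of its group (441 CPM summed), and in YCRRF replicate 4 at 38.2 CPM, below the other 3. Fzd7 stood apart in YCR replicate 3 at 34.5 CPM and Fzd4 in YCRRF replicate 3 at 15.0 CPM, both above the rest of their group. Lrp6 stood apart in YAL replicate 2 at 48.6 CPM and in KdrKD replicate 2 at 51.6 CPM, both below. YCRRF replicate 4 was the shallowest library, with 11102898 counted reads. The cause of these values was not tested.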

How the results depend on the processing

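Signs under the alternatives were followed for Sfrp1 and for members with an unadjusted p under 0.05 or a call under any setting. Named wider-list genes and promoter peaks with an unadjusted p under 0.05 were also followed. None of these log2 fold changes changed sign, but the choice favours stable signs, and members with changes near 0 were not followed. The share of higher calls over all genes did move with the scaling. Of the summary values, 65 held and 25 moved outside the fits that left out a library, and 121 held and 5 moved within those. Of the single values, 318 held, 60 moved, 40 lost and 23 gained a call outside those fits, and 408 held, 78 moved, 95 lost and 7 gained a call within them. For lifelong restriction (OCR vs OAL), 0 members in place of 1 were called when all 6 groups shared 1 fit. The count of called members became 1 in place of 0 with DESeq2 in OCRRF vs OCR, YCRRF vs YCR, the Kdr knockdown and the double knockdown, with no filter in YCR vs YAL, YCRRF vs YCR and both knockdowns, and with all groups in 1 fit in YCRRF vs YCR and the double knockdown. In OCRRF vs OAL it became 2 in place of 0 with DESeq2, with DESeq2 size factors and with no filter, and 1 with TMM over genes of at least 5 CPM. In OAL vs YAL it became 5 in place of 3 with DESeq2. Leaving out 1 library gave 0 to 1 members in OCRRF vs OCR and in YCRRF vs YCR, and 1 to 5 in OAL vs YAL, and moved no other member count. The lone library left in a group by such a fit is assumed to vary like the others. The cause of these changes was not tested.

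The replicate numbers were not taken to pair the libraries, since the correlation of same-numbered deviations ran from -0.14 to 0.15. With the number as a replicate block, called members went from 0 to 1 in OCRRF vs OCR and from 0 to 2 in OCRRF vs OAL, and in OAL vs YAL the block ended the Fzd7 call (adjusted p 0.0548). All genes called went with the block from 1110 to 3437 in OCRRF vs OCR, 1316 to 2080 in OCRRF vs OAL, 68 to 7 in YCR vs YAL, 2 to 0 in YCRRF vs YCR, 3486 to 1651 in OAL vs YAL, 9 to 3 for the interaction, 3 to 26 in the Kdr and 1 to 0 in the double knockdown, and 273 to 762 in ATAC-seq. In ATAC-seq the Fzd4 promoter had adjusted p values of 0.0301 to 0.409 over its alternatives, with a fold change too small for a call.

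All genes called by edgeR moved more than 1.5 times elsewhere too. In OCR vs OAL the 1511 became 212 with all groups in 1 fit. In OCRRF vs OCR the 1110 became 2391 with DESeq2, 64 with all groups and 352 to 2755 without 1 library. In OCRRF vs OAL the 1316 became 4577 with DESeq2, 3215 with its size factors, 808 with TMM over genes of at least 5 CPM, 2684 with no filter, 0 with all groups and 38 to 386 without 1 library. In YCR vs YAL the 68 became 527 with DESeq2, where 43.8% in place of 25% were higher, 368 with no filter, 201 with all groups and 6 to 27 without 1 library. The 2 of YCRRF vs YCR became 378, 275 and 538, and the 0 of YCRRF vs YAL 52, 40 and 9, with DESeq2, no filter and all groups. In OAL vs YAL the 3486 became 7953 with DESeq2, 6671 with no filter and 1475 to 5357 without 1 library. With DESeq2, no filter and all groups, the 9 of the interaction became 239, 23 and 3, the 3 of the Kdr knockdown 261, 82 and 0, and the 1 of the double knockdown 332, 19 and 15, and without 1 library they became 2 to 27, 0 to 12 and 0 to 1. The 273 ATAC peaks became 172 with DESeq2 and 98 to 368 without 1 library. Wider-list calls with DESeq2 were 7 in place of 2 in OCRRF vs OCR, 19 in place of 6 in OCRRF vs OAL and 29 in place of 18 in OAL vs YAL, and without 1 library 1 to 5 in OCR vs OAL, 0 to 6 in OCRRF vs OCR, 0 to 3 in OCRRF vs OAL and 3 to 31 in OAL vs YAL.

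Averaged over all start sites of a gene, H3K4me3 was 22.6 for Ctnnb1, 10.7 for Lef1 and 18.6 for Tcf7l2, and H3K27me3 was 5.26 for Lef1 and 0.645 for Tcf7l2. With 50 kb in place of 5 kb, PU.1 peaks in both replicates were found near 2 members in ad libitum old HSCs and 2 in OCRRF, in place of 1 each. Depth limits Lef1 and Axin2, which had few reads, most of them even counts, and groups of 2 libraries limit the refeeding and knockdown comparisons.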
